A study of Mus musculus with 28 samples.

Results

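The unfolded protein response and the integrated stress response were followed here through 35 named genes in 16 mouse livers and 12 cultures labelled as bone marrow-derived macrophages. The genes were taken by name as members of the 2 pathways, with no cutoff on their values, by a list drawn up with earlier results of these data known. They comprise 14 chaperones and folding factors of the endoplasmic reticulum (ER), 4 genes for stress sensors and XBP1, 4 genes of ER-associated degradation, the ER oxidase gene Ero1l, Atf4 itself and 11 ATF4 targets. All 35 had a value in each of the 3 deposited tables, which list 17752 genes for liver, 56748 for the NFATc3 knock-in cultures and 21959 for the ASK1 knock-in cultures. After a filter on low counts, 35 members were tested in liver, 35 in the NFATc3 set and 34 in the ASK1 set, where Aldh1l2 was too low.

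The livers came from male mice, 8 weeks old when given a methionine- and choline-deficient diet, which brings on steatohepatitis, for 4 weeks. Every liver group had this diet, so its own effect was not measured. The 4 groups of 4 livers were Lyz2-Cre controls, a macrophage knockout of NFATc3 (NFATc3-MKO), a macrophage knockout of ASK1 (ASK1-MKO) and a knockout of both (MDKO). Calcineurin signalling sends NFATc3 into the nucleus, where it regulates transcription. ASK1 is a kinase upstream of JNK and p38 and the product of Map3k5. The cultures were macrophage knock-ins of NFATc3 (NFATc3-MKI) or ASK1 (ASK1-MKI), each with its own Lyz2-Cre controls, at 3 cultures a group, grown for 7 days with 30% L929-conditioned medium. Lyz2-Cre expresses a recombinase in myeloid cells, and the labels name no other driver, nor the age or sex of the mice that gave the marrow. The labels number the replicates and do not say that they came from separate animals or cultures, so the p-values below measure only the spread between these samples. The RNA of a whole liver comes mostly from hepatocytes, and the labels name macrophages. In such bulk samples fewer cells of a type and less RNA per cell cannot be told apart.

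The ER folds secreted and membrane proteins with chaperones such as BiP, encoded by Hspa5. When unfolded proteins build up, the sensors IRE1 (Ern1), PERK (Eif2ak3) and ATF6 are released. IRE1 splices Xbp1 mRNA, and XBP1 and cleaved ATF6 raise chaperones and degradation factors, in part through a promoter element named ERSE. PERK phosphorylates the translation factor eIF2alpha, as do kinases that sense amino acid shortage, viral RNA and haem shortage. This integrated stress response slows translation in general and favours that of ATF4, which raises genes of amino acid synthesis and transport (Asns, Psat1, Phgdh, Slc3a2, Aldh1l2) and of the outcome of stress (Ddit3, Trib3, Chac1, Sesn2, Ddit4, Ppp1r15a). Much of this control acts on protein or on splicing, which counts per gene do not show.

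The sequences below show promoter elements tied to chaperone genes and to ATF4 targets, with no expression value used. The ERSE is known as an element of chaperone promoters, so finding it there is a description and no separate evidence for the grouping. Promoters, from 250 bases before to 50 after the start, came from RefSeq on GRCm38.p6 (the assembly called mm10), and 31 of the 35 members had an entry. The ERSE was searched on both strands as CCAAT, 9 bases of any kind, then CCACG. It was found in 39 of 32851 promoters (0.119%), which belong to 37 of 27025 genes, and among the members in 8 of 31. Of these, 7 were among the 12 chaperone genes with an entry, 1 was Syvn1, and 0 were among 10 ATF4 targets. Capitals mark the match, on either strand of the printed strand:
Hspa5, chr2:34772015-34772053, plus strand: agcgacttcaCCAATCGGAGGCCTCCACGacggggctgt
Calr, chr8:84847065-84847103, minus strand: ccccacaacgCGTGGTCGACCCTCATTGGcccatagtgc
Canx, chr11:50325790-50325828, minus strand: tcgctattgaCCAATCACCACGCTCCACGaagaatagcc
Creld2, chr15:88819510-88819548, plus strand: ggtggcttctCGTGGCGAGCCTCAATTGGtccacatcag
Dnajc3, chr14:118937817-118937855, plus strand: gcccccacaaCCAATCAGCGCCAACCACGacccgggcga
Pdia6, chr12:17266481-17266519, plus strand: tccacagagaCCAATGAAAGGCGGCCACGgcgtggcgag
Syvn1, chr19:6046522-6046560, plus strand: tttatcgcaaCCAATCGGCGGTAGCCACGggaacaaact

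Hsp90b1 held 2 copies of the ERSE, on opposite strands of the same stretch, and is printed with both in capitals:
Hsp90b1, chr10:86705523-86705666, minus strand: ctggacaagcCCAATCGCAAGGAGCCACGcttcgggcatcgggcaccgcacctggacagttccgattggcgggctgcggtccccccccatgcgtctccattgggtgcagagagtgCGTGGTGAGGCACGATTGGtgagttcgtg

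The ATF4 composite element was searched as TGATGNAA on both strands. It was in 3.969% of all promoters and in 4 of the 31 members, which were the ATF4 targets Asns, Chac1 and Trib3 and the degradation gene Herpud1. The 3 matches that lie before the start are:
Asns, chr6:7693215-7693242, minus strand: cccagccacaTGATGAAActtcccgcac
Chac1, chr2:119351039-119351066, plus strand: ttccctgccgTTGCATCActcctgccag
Herpud1, chr8:94386307-94386334, plus strand: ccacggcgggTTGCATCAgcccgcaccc
The UPRE, searched as TGACGTGG on both strands, was in 0.676% of all promoters and in 0 of the 31. A match is a description of these windows and not a bound site, and elements outside the windows were not searched.

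Libraries held 8912117 to 30834547 counts in liver, 7693464 to 9398163 in the NFATc3 set and 16051951 to 18728508 in the ASK1 set. The targeted genes did not move as most labels name. Nfatc3 stood at 19.6 to 31.5 CPM (reads of a gene scaled to a common library size) in the livers labelled NFATc3-MKO and at 30.7 to 39.8 in control livers, a log2 change of −0.36 ± 0.14 SE (edgeR adjusted p = 0.12). Map3k5 was higher in the livers labelled ASK1-MKO, at 41.7 to 55.1 against 27.7 to 32.7 CPM (0.58 ± 0.15, edgeR adjusted p = 0.0262). In MDKO livers the log2 changes were 0.01 for Nfatc3 and −0.01 for Map3k5. The knock-in cultures had slightly less of their gene, by −0.26 ± 0.10 for Nfatc3 (edgeR adjusted p = 0.0371) and −0.16 ± 0.06 for Map3k5 (edgeR adjusted p = 0.0266). Whole-liver reads come mostly from cells other than macrophages, and counts per gene do not show which part of a gene was altered. These values therefore do not settle whether the labels hold. Group names below mean the libraries labelled so. The NFATc3 set also stood apart in its macrophage markers. Summed over 8 pan-macrophage genes it held 1541 to 2146 CPM, against 33520 to 37750 in the ASK1 set, with Lyz2 at 363 to 503 CPM, Adgre1 at 30.0 to 36.3 CPM and Mertk at 0 to 0.133 CPM. The name macrophage for the NFATc3 set is therefore that of the labels, and the identity of its cells was not tested. Lastly, each MDKO liver was alike to the Lyz2-Cre liver of the same number. Over the 35 members the median difference in log2 CPM was 0.0756 to 0.2122 for the 4 same-numbered pairs and 0.2136 to 0.474 for the 12 others.

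In the NFATc3-MKI cultures ATF4 targets and a subset of ER chaperones were higher than in their controls, and Ero1l and Ddit4 were lower. edgeR called 19 of 35 members (16 higher, 3 lower), against 33.3% of all genes tested in that comparison (16.5% higher, 16.8% lower). Groups did not overlap for 21 members, against 45.8% of all genes. The ATF4 targets had 7 higher and 1 lower of 11 at a median log2 change of 0.42, and the chaperones 6 higher of 14 at a median of 0.17. The median over all genes tested was 0.00.

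Among chaperones, Hspa5 (BiP, chromosome 2, 34771970 to 34777547 in mm10) stood at 6075, 5927 and 5189 CPM in NFATc3-MKI cultures and at 3714, 3576 and 3477 in controls. It was 1.6-fold higher (log2 change 0.67 ± 0.10 SE, edgeR adjusted p = 1.09e-05), with no overlap. Pdia4, a disulfide isomerase, stood at 328, 315 and 318 CPM against 181, 197 and 183, again without overlap (0.78 ± 0.08, edgeR adjusted p = 1.07e-07). Creld2, a secreted disulfide isomerase-like protein, went from 64.7, 64.2 and 66.5 CPM to 107, 90.6 and 101 (0.61 ± 0.09, edgeR adjusted p = 2.28e-05). Manf, an ER-resident factor that is secreted on stress, stood at 319, 282 and 308 CPM against 216, 237 and 212 (0.45 ± 0.08, edgeR adjusted p = 0.000246). These 4 were higher in every NFATc3-MKI culture than in any control. Dnajb11, a BiP co-chaperone, rose by 0.40, and Sdf2l1, a BiP complex member, by 0.27. Not all abundant chaperones moved: Hsp90b1 (GRP94) had a log2 change of −0.01 ± 0.09, Calr 0.15 ± 0.09 and Canx −0.07 ± 0.09, none of them called. Of the 8 members with an ERSE in the promoter windows above, 2 rose (Hspa5 and Creld2) and 0 fell, against 16.5% of all genes higher. Chaperones with no ERSE found rose too, namely Pdia4, Dnajb11, Sdf2l1 and Manf, while Pdia3, Dnajb9 and Hyou1 were not called. Manf and Hyou1 had no promoter entry.

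The sensors had small changes. Xbp1, whose splicing these counts do not show, stood at 92.5, 89.1 and 100.7 CPM against 69.0, 88.6 and 78.2, close to overlap (0.26 ± 0.10, edgeR adjusted p = 0.0479). Its call was lost without control replicate 1 (0.266) or 3 (0.137), without NFATc3-MKI replicate 1 (0.0833) or 3 (0.144), and by DESeq2 (0.0695). Eif2ak3, the PERK kinase, was lower in all 3 cultures (−0.43 ± 0.13, edgeR adjusted p = 0.00951), a call lost without control replicate 2 (0.0552) or NFATc3-MKI replicate 3 (0.0539). Sdf2l1 likewise lost its call without control replicate 1 (0.129) or 3 (0.15) or NFATc3-MKI replicate 1 (0.191). Atf6 and Ern1 were not called, at −0.19 ± 0.09 and −0.04 ± 0.10. In ER-associated degradation, Herpud1, a membrane scaffold of the pathway, stood at 103, 116 and 103 CPM against 75.1, 80.0 and 73.4 (0.50 ± 0.09, edgeR adjusted p = 0.000176). Sel1l, the partner of the ligase HRD1, stood at 225 to 250.9 CPM against 168 to 187 (0.47 ± 0.08, edgeR adjusted p = 0.000165). Both were separated from their controls in all 3 cultures. Edem1, a mannosidase-like lectin, and Syvn1, the ligase HRD1 itself, were not called, at 0.17 ± 0.08 and 0.17 ± 0.11.

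Atf4 mRNA was level, at 409, 416 and 401 CPM against 424, 421 and 404 (−0.03 ± 0.08, edgeR adjusted p = 0.834). The largest rise among the members was that of Ddit3, which encodes the pro-apoptotic factor CHOP (chromosome 10, 127290774 to 127296288). It stood at 530.2, 529 and 484 CPM against 239, 202 and 209, a 2.37-fold difference (1.25 ± 0.09, edgeR adjusted p = 1.9e-10). Exons of Mars, a tRNA synthetase gene on the opposite strand, overlap those of Ddit3, and Mars rose by 0.41. The strand setting of the counting is not known, so reads of the overlap cannot be told apart. Trib3, a pseudokinase that inhibits AKT and binds ATF4 (chromosome 2, 152337422 to 152344032), stood at 68.7, 57.6 and 67.5 CPM against 28.9, 32.7 and 23.1 (1.19 ± 0.12, edgeR adjusted p = 5.13e-08). Asns, the asparagine synthetase gene (chromosome 6, 7675169 to 7693254), stood at 348, 382 and 362 CPM against 182, 217 and 165 (0.95 ± 0.09, edgeR adjusted p = 4.21e-08). The groups were apart for all 3 genes.

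Genes of amino acid transport and of serine and folate metabolism rose less. Slc3a2, the heavy chain shared by several amino acid transporters, stood at 281, 255 and 297 CPM against 209, 215 and 199 (0.42 ± 0.08, edgeR adjusted p = 0.00047). Phgdh, the first enzyme of serine synthesis, rose by 0.35, Aldh1l2, a mitochondrial folate enzyme, by 0.44, and Sesn2, a stress-induced inhibitor of mTORC1 signalling, by 0.56. Psat1, the next serine enzyme, had a log2 change of 0.15 ± 0.08, Ppp1r15a (GADD34, which brings a phosphatase to eIF2alpha) 0.20 ± 0.10 and Chac1, a glutathione-degrading enzyme at 2.24 to 4.53 CPM, 0.38 ± 0.30, and none was called. Against this direction, Ddit4 (REDD1, an mTORC1 inhibitor that hypoxia also induces) stood at 30.4, 21.1 and 26.9 CPM against 72.1, 56.0 and 54.9 (−1.22 ± 0.13, edgeR adjusted p = 2.57e-07). Ero1l (also Ero1a, chromosome 14, 45283087 to 45318771), which passes electrons from disulfide isomerases to oxygen and is likewise known as hypoxia-induced, stood at 674, 665 and 546 CPM against 1558, 1301 and 1455 (−1.19 ± 0.10, edgeR adjusted p = 2.38e-09). Both genes were lower in every NFATc3-MKI culture.

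In the ASK1-MKI cultures the ATF4 targets were lower and most ER chaperones slightly higher. edgeR called 25 of 34 members (10 higher, 15 lower), against 49.1% of all genes tested in that comparison (24.6% higher, 24.5% lower). Groups did not overlap for 27 members, against 54.5% of all genes. Of the 10 ATF4 targets tested 9 fell and 0 rose, at a median log2 change of −1.11, and Atf4 itself fell by 0.29. Of the 14 chaperones 9 rose and 1 fell at a median of 0.20, while the median over all genes was 0.00. The replicates of this set varied little, with what edgeR names a biological coefficient of variation at 0.021, so changes of this small size passed the test. Per gene, counts within its groups differed by 1.59 to 1.99 times the sampling variance, against 2.82 to 8.94 times in the NFATc3 set. Whether these replicates are separate cultures is not given by the labels, and the small p-values measure only this spread.

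Phgdh (chromosome 3, 98313170 to 98339990) stood at 0.628, 1.45 and 1.07 CPM in ASK1-MKI cultures and at 4.44, 3.34 and 5.10 in controls, 10 to 25 reads against 58 to 96. The level was 0.247 of that in controls (log2 change −2.02 ± 0.23 SE, edgeR adjusted p = 1.47e-13). Trib3 stood at 4.83, 4.63 and 3.58 CPM against 14.1, 13.4 and 16.0 (−1.74 ± 0.12, edgeR adjusted p = 1.5e-27). Asns stood at 8.41, 8.39 and 11.1 CPM against 19.4, 19.2 and 19.9 (−1.06 ± 0.09, edgeR adjusted p = 5.17e-20). None of these 3 overlapped with its controls. Ppp1r15a stood at 30.5, 29.6 and 31.5 CPM against 52.5, 52.3 and 55.0 (−0.80 ± 0.05, edgeR adjusted p = 4.53e-28), and Slc3a2 at 314, 323 and 313 against 372, 373 and 391 (−0.26 ± 0.02, edgeR adjusted p = 3.31e-18). Psat1 fell by 1.15, Chac1 by 1.33 at a level of 0.314 to 1.33 CPM, Ddit4 by 1.30 at 1.45 to 4.11 CPM, and Sesn2 by 0.34. The exception was Ddit3, at 17.3, 20.4 and 22.7 CPM against 21.7, 21.0 and 20.6, with overlapping groups (−0.06 ± 0.08, edgeR adjusted p = 0.515). Atf4 stood at 115, 116 and 119.9 CPM against 143, 140.2 and 147, below every control (−0.29 ± 0.03, edgeR adjusted p = 2.02e-14).

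Ero1l had the smallest p of the members, at 119.9, 122 and 122 CPM against 364, 359.9 and 357 (−1.57 ± 0.03, edgeR adjusted p = 3.7e-89), or 0.337 of the control level. The rises among chaperones ran from 0.17 to 0.27 on the log2 scale. Pdia6, a disulfide isomerase, stood at 235, 238 and 234 CPM against 192, 197 and 196 (0.27 ± 0.03, edgeR adjusted p = 1.11e-16). Calr, a lectin chaperone that binds calcium, stood at 1154, 1172 and 1182 CPM against 967, 943 and 1005 (0.27 ± 0.02, edgeR adjusted p = 2.15e-24). These groups were apart. Pdia3, which acts with Calr, stood at 811, 809 and 819 CPM against 715, 710.4 and 711 (0.19 ± 0.02, edgeR adjusted p = 2.72e-15), Hyou1 (GRP170, which exchanges nucleotides on BiP) at 189.8, 186 and 182 against 155, 155 and 154 (0.26 ± 0.03, edgeR adjusted p = 3.73e-14), and Hsp90b1 at 482, 487 and 516 against 424, 425 and 432 (0.21 ± 0.02, edgeR adjusted p = 6.03e-15). Hspa5 was level, at 689, 691 and 686 CPM against 686, 669.9 and 678, with overlap (0.02 ± 0.02, edgeR adjusted p = 0.391). Dnajb9, a BiP co-chaperone that restrains IRE1, fell by 0.15, a call lost without control replicate 1 (edgeR adjusted p = 0.145), and Manf rose by 0.17, a call lost without control replicate 2 (0.0805). Of the 8 members with an ERSE, 5 rose and 0 fell, against 24.6% of all genes higher. Chaperones with no ERSE found rose too, namely Pdia3, Dnajb11, Sdf2l1, Hyou1 and Manf, while Pdia4 was not called and Dnajb9 fell. Hyou1 and Manf had no promoter entry.

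Neither Ern1, Atf6 nor Eif2ak3 was called, with log2 changes of 0.01, −0.03 and 0.04. Xbp1 stood at 132, 131 and 124 CPM against 123, 122 and 122, without overlap and not called (0.07 ± 0.03, edgeR adjusted p = 0.058); without ASK1-MKI replicate 3 it passed (0.02). In degradation Herpud1 fell by 0.40, Sel1l by 0.14 and Edem1 by 0.13, and Syvn1 rose by 0.26.

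**Figure D1:**
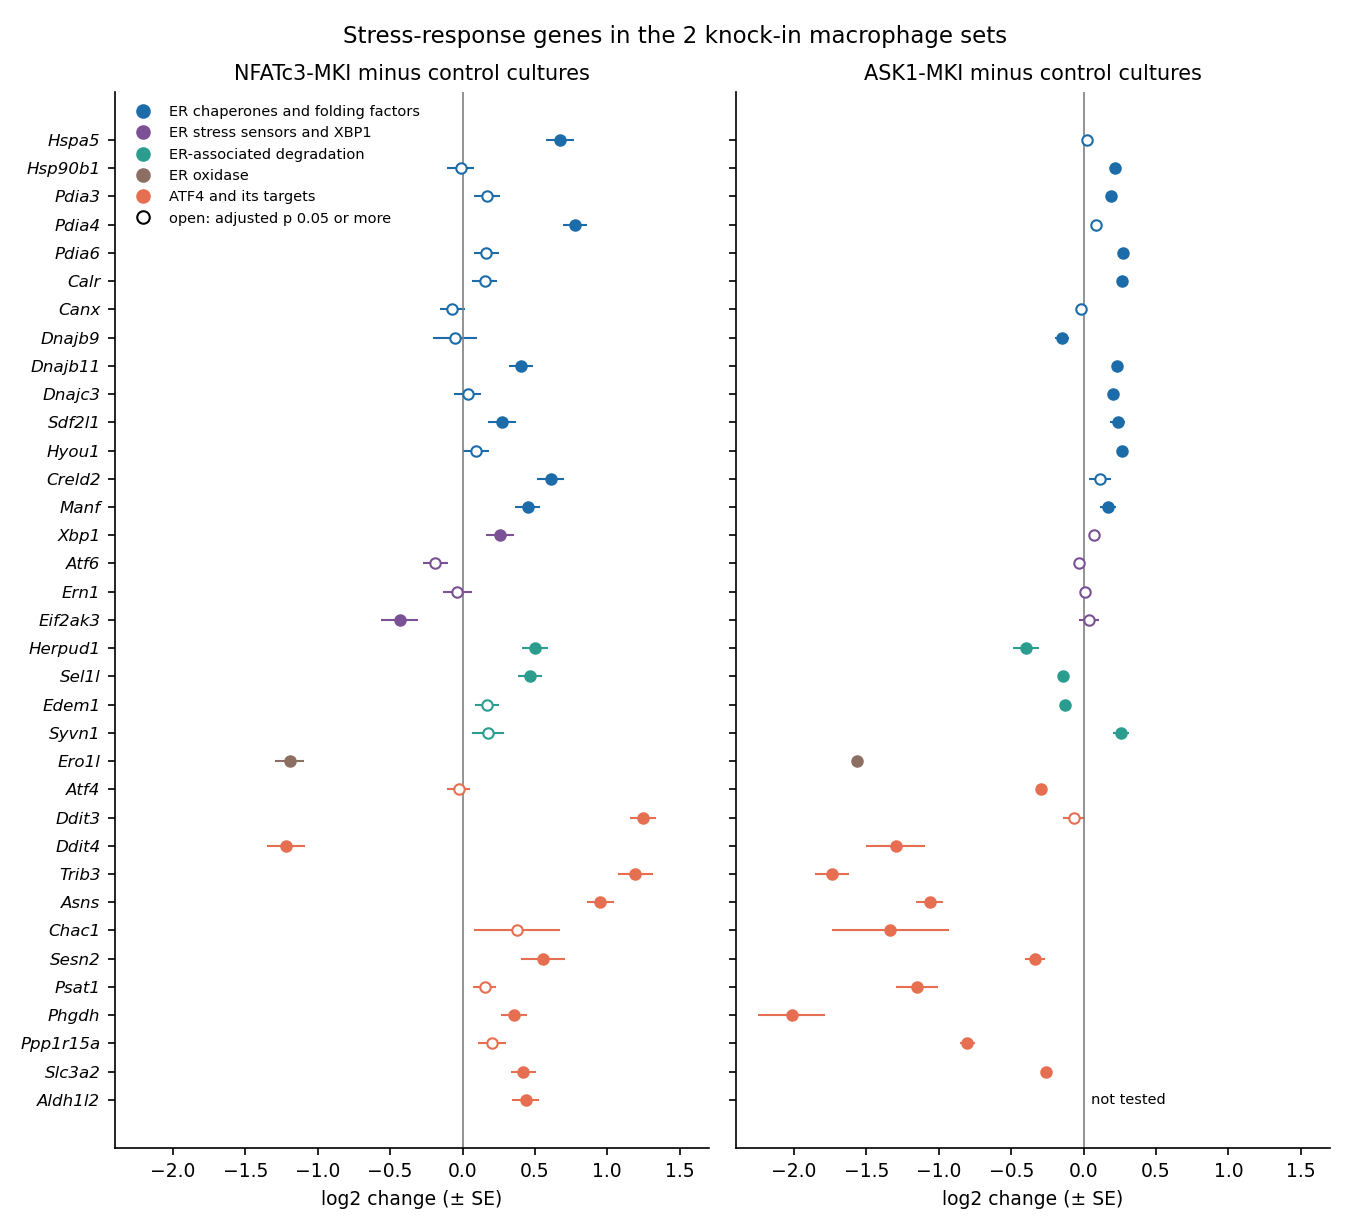
Log2 change of each member with its standard error in the NFATc3-MKI cultures (left) and the ASK1-MKI cultures (right), each against its own controls, coloured by role and open where edgeR's adjusted p was 0.05 or more. ATF4 targets lie mostly to the right of 0 on the left panel (7 higher and 1 lower of 11) and to the left of 0 on the right panel (0 higher and 9 lower of 10), while Ero1l and Ddit4 lie to the left of 0 in both.

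Set side by side, 8 members had groups apart in both sets with opposite directions. They were the ATF4 targets Trib3 (1.19 in NFATc3-MKI, −1.74 in ASK1-MKI), Asns (0.95, −1.06), Phgdh (0.35, −2.02), Psat1 (0.15, −1.15) and Slc3a2 (0.42, −0.26) and the degradation genes Herpud1 (0.50, −0.40), Sel1l (0.47, −0.14) and Edem1 (0.17, −0.13). Psat1 and Edem1 were not called in the NFATc3 set. Called lower in both were Ero1l and Ddit4, and called higher in both were Dnajb11, Sdf2l1 and Manf. The sets have separate controls and were fitted apart, and they differed in macrophage markers, as given above. Whether their cells are alike is not known, and the difference between the sets was not tested. Their control levels also differed: Hspa5 stood at 849 ± 28.1 CPM per kb of exon (SD, n = 3) in the controls of the NFATc3 set, where it was highest of the members, and at 160.3 ± 1.95 in those of the ASK1 set, where Calr led at 337 ± 10.9. Phgdh ranked 33 of the 35 in the ASK1 set's controls, at 1.73 ± 0.36 CPM per kb. Mean control levels in the NFATc3 and ASK1 sets were 299.5 and 4.29 CPM for Phgdh and 348 and 7.93 for Psat1. They were 187.9 and 19.5 for Asns and 28.2 and 14.5 for Trib3. Slc3a2 went the other way, at 207.3 and 378.4. The falls in the ASK1 set thus began from low levels in several of these genes.

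**Figure D2:**
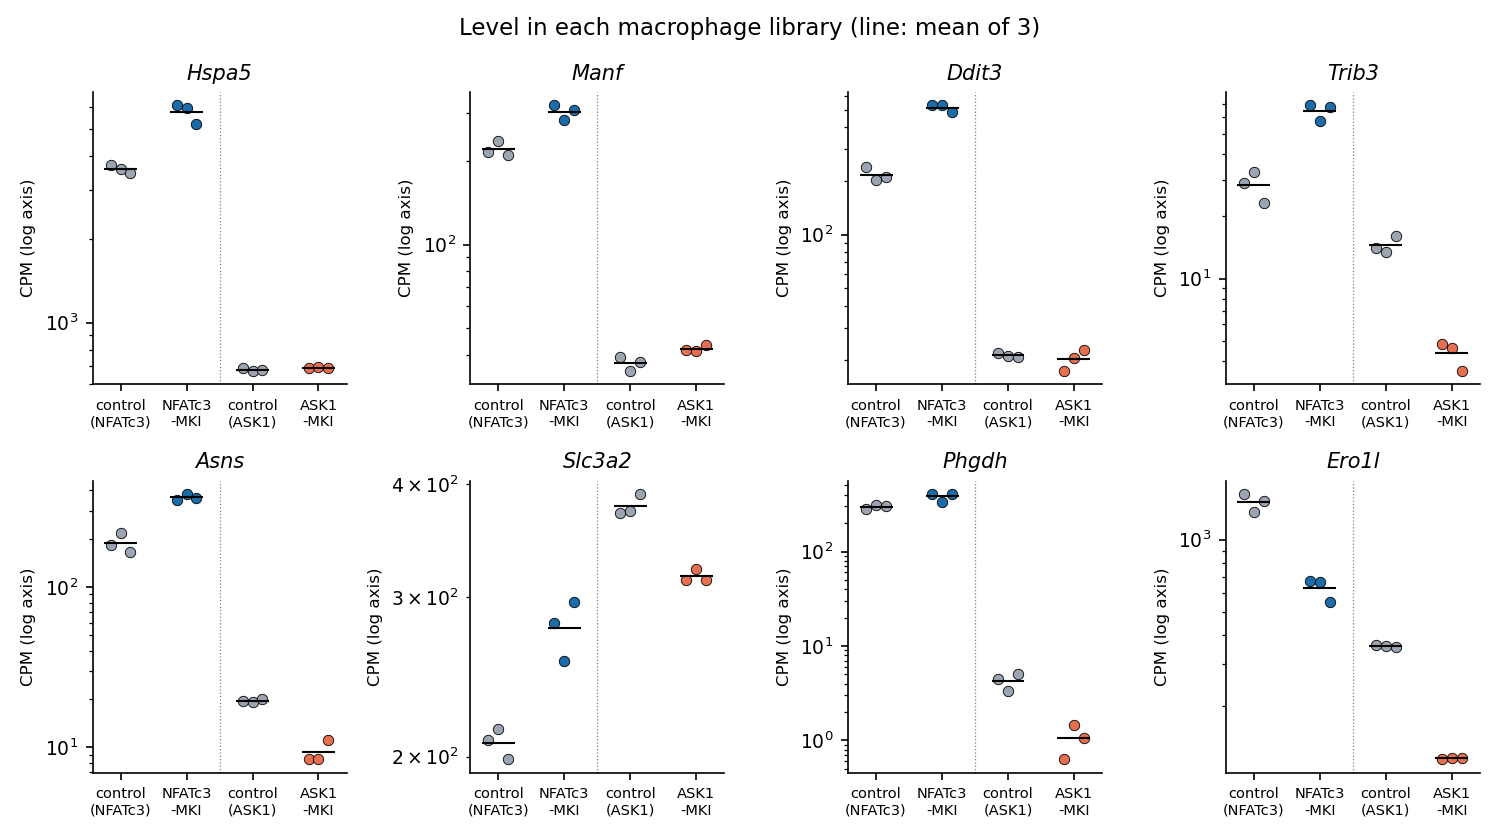
CPM in each macrophage library on a log axis, for 8 members, with a line at the mean of 3 and a dotted line between the sets, which were scaled separately. Hspa5, Ddit3, Trib3 and Asns are higher in NFATc3-MKI than in every one of its controls, Trib3, Asns, Phgdh and Slc3a2 are lower in ASK1-MKI than in every one of its controls, and Ero1l is lower in both knock-ins.

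Markers of macrophage state moved with both knock-ins. In the NFATc3 set 5 of 7 tested pan-macrophage markers rose and 0 fell, from a sum of 1541 to 1642 CPM in controls to 1958 to 2146. The 8 genes of monocyte-derived and lipid-associated macrophages went from a sum of 5348 to 6014 CPM to one of 18480 to 23140, with 3 of 6 tested called higher and 0 lower. The Kupffer cell genes C6, Clec4f, Marco, Timd4 and Vsig4 were at 0 there. In the ASK1 set the Kupffer cell list fell from 889 to 914 CPM to 293 to 313 (4 of 4 tested lower, Clec4f at 0), and the dendritic cell list rose from 13.2 to 13.8 CPM to 61.1 to 63.7 (1 of 2 tested higher, Cd209a at 0). The part of these shifts in the stress genes was not tested.

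The wider pathway in the cultures was read from other lists. Of 18 cytosolic tRNA synthetase genes, many of them ATF4 targets, 14 rose and 1 fell in NFATc3-MKI, led by Wars (1.10 ± 0.09, edgeR adjusted p = 2.5e-09) and Gars (0.64 ± 0.08, edgeR adjusted p = 2.92e-06), and 7 rose and 3 fell in ASK1-MKI, where Aars fell by 0.20. Among 28 tested other targets of ATF4 or the integrated stress response, 13 rose and 4 fell in NFATc3-MKI, with Slc7a5, the light chain partner of Slc3a2, at 0.91 ± 0.11 and Cth, of cysteine synthesis, at 1.10 ± 0.15. In ASK1-MKI 1 rose and 15 fell of 27. There Slc7a11, the cystine transporter that pairs with Slc3a2, fell by 1.35, Cdkn1a, a cell cycle inhibitor, by 0.80 and Slc38a2, an amino acid transporter, by 0.55. Vegfa, the angiogenic factor, also known to be hypoxia-induced, fell in both sets, by 0.74 and 1.90. No list of hypoxia genes was examined, and a part of hypoxia in the lower Ero1l, Ddit4 and Vegfa was not tested. Other ER folding and quality control genes were split, 11 higher and 4 lower of 34 in NFATc3-MKI and 12 higher and 6 lower of 33 in ASK1-MKI, and both sets had 14 of 30 ER translocation and transport genes higher, with 0 lower in NFATc3-MKI and 5 in ASK1-MKI.

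**Figure D3:**
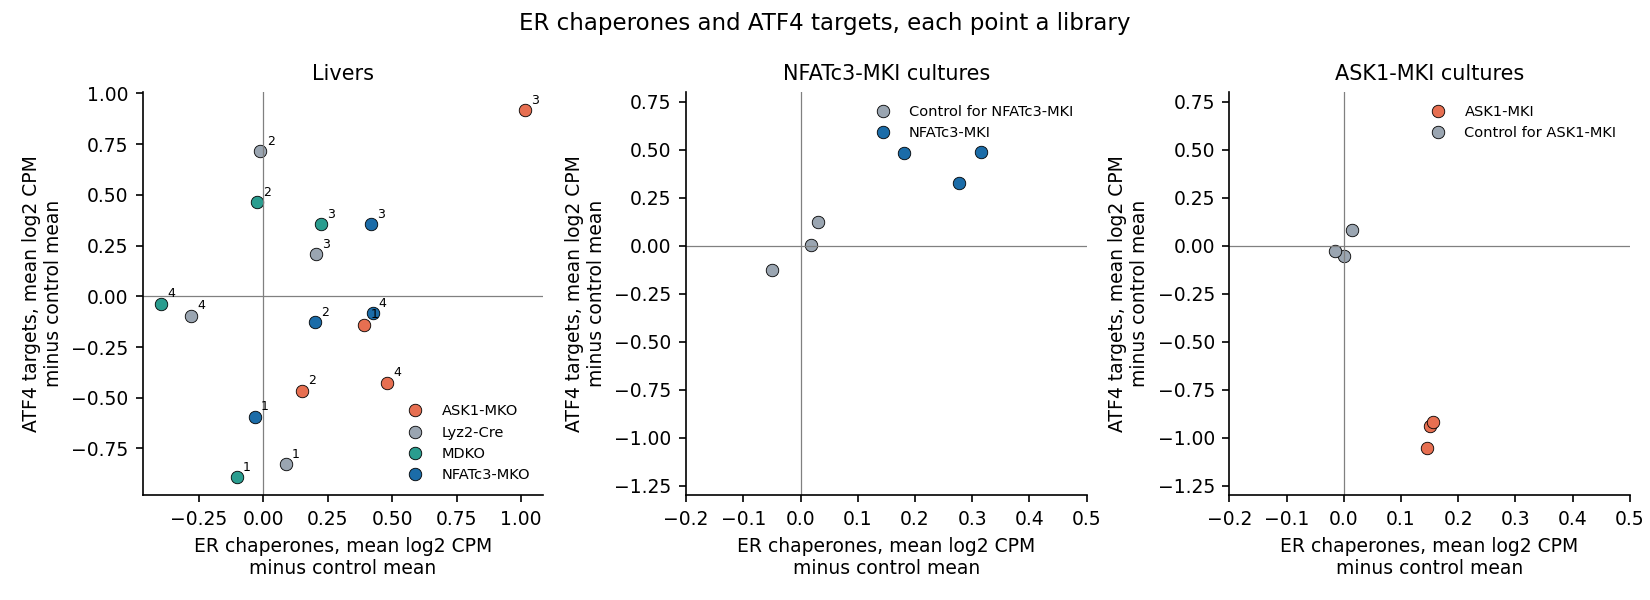
Mean log2 CPM of the 14 chaperones (horizontal) and of the ATF4 targets (vertical), each minus the mean of its controls, with a point for each library and the liver replicate numbers printed. NFATc3-MKI cultures lie at 0.18 to 0.32 for chaperones and 0.32 to 0.49 for ATF4 targets, ASK1-MKI cultures at 0.15 to 0.16 and −1.05 to −0.92, and the livers spread along both axes with ASK1-MKO replicate 3 at the upper right.

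In livers labelled ASK1-MKO 3 ER chaperone genes, the sensor gene Atf6 and 2 degradation genes were higher than in Lyz2-Cre livers, and 0 ATF4 targets were called. edgeR called 6 of 35 members, all higher, against 8.46% of genes tested in that comparison (4.46% higher). Groups did not overlap for 9 members, against 18.2% of all genes. All 14 chaperones had a positive log2 change, 0.25 to 0.92 with a median of 0.52, and 3 of them were called. The 14 genes share their livers, so their common sign is not 14 separate observations. Averaged over the 14, log2 levels ran from 0.15 to 1.02 around the control mean in ASK1-MKO livers and from −0.28 to 0.20 in controls. These ranges overlap, and ASK1-MKO replicate 3 was the highest. Of the degradation genes 2 of 4 were called. The 11 ATF4 targets had a median of −0.10 with 0 called. At an unadjusted p under 0.05 there were 3 of the 11, against 23.4% of all genes. The median over all genes was −0.03.

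Hsp90b1 (chromosome 10, 86690209 to 86705509) stood at 840.3, 748, 1013 and 730.1 CPM in ASK1-MKO livers and at 577, 513, 610.4 and 535 in Lyz2-Cre livers, with no overlap (log2 change 0.58 ± 0.13 SE, edgeR adjusted p = 0.00957). Dnajc3, a co-chaperone that inhibits PERK, stood at 294, 277, 379 and 323 CPM against 226, 207, 253 and 205 (0.51 ± 0.14, edgeR adjusted p = 0.027). Dnajb9 stood at 109.8, 107, 272 and 139 CPM against 84.8, 92.2, 92.5 and 62.4 (0.92 ± 0.27, edgeR adjusted p = 0.0446). Replicate 3 of the ASK1-MKO livers was the highest for each of these. The sensor gene Atf6 stood at 176, 161, 242 and 165 CPM against 92.0, 132, 118 and 80.8 (0.82 ± 0.20, edgeR adjusted p = 0.0173). Herpud1 stood at 317, 275, 423 and 303 CPM against 124, 201, 178 and 239 (0.83 ± 0.23, edgeR adjusted p = 0.0367), and Syvn1 (chromosome 19, 6046576 to 6053712) at 31.9, 23.0, 45.7 and 22.1 against 15.9, 18.4, 20.1 and 14.8 (0.83 ± 0.21, edgeR adjusted p = 0.02). The lowest ASK1-MKO liver stood above the highest control in all 6 genes. Hspa5 was 1.6-fold higher without being called, at 882, 758, 1836 and 1057 CPM against 714, 742, 844 and 539 (0.68 ± 0.25, edgeR adjusted p = 0.102). Xbp1 was level, at 204, 116, 175 and 139.9 CPM against 162, 153, 149 and 147 (0.06 ± 0.14).

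These calls rested on few livers. Their number fell from 6 to 1 without ASK1-MKO replicate 3 or without Lyz2-Cre replicate 1, and to 2 without Lyz2-Cre replicate 4, and Hsp90b1 kept its call under every alternative run. Atf6 missed the threshold on leaving out replicate 3 of ASK1-MKO or replicate 1 or 4 of Lyz2-Cre (edgeR adjusted p of 0.0531 to 0.0653), and Syvn1 without those or ASK1-MKO replicate 1 (0.0538 to 0.0697). Herpud1 missed it without ASK1-MKO replicates 1, 3 or 4 or Lyz2-Cre replicates 1 or 3 (0.0552 to 0.102), and Dnajc3 without ASK1-MKO replicates 3 or 4 or Lyz2-Cre replicates 1, 2 or 4 (0.0554 to 0.0877). Dnajb9 missed it without ASK1-MKO replicates 3 or 4, any Lyz2-Cre liver, or MDKO replicates 1, 3 or 4 (0.0501 to 0.151), and also without a filter on low counts (0.0581) and with only the groups compared in the fit (0.0711). In the other direction DESeq2 called 12 members, and Hspa5 passed there (0.0495).

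ATF4 targets in these livers varied within groups more than between them. Atf4 stood at 79.7, 63.8, 147 and 63.7 CPM in ASK1-MKO livers and at 116, 98.2, 131 and 84.4 in controls (−0.28 ± 0.26, edgeR adjusted p = 0.571). Ddit3 stood at 10.5, 5.40, 35.6 and 7.74 CPM against 7.88, 18.0, 18.4 and 10.0 (0.13 ± 0.49), and Trib3 at 43.6, 10.2, 78.9 and 14.1 against 6.39, 29.7, 20.4 and 18.6 (0.97 ± 0.65). Asns stood at 14.1, 14.3, 30.5 and 27.2 CPM against 33.7, 59.1, 38.3 and 24.9 (−0.86 ± 0.34, edgeR adjusted p = 0.127). All 4 genes overlapped between the groups, and ASK1-MKO replicate 3 was the highest of its group for each. Averaged over the ATF4 targets, log2 levels ran from −0.46 to 0.92 around the control mean in ASK1-MKO livers and from −0.83 to 0.72 in controls. Of other stress genes, Ero1lb, the second ER oxidase, was higher (0.89 ± 0.19, edgeR adjusted p = 0.00806), as were Hspa13 (0.95 ± 0.28, 0.0471), Selenos, a degradation factor (0.49 ± 0.14, 0.0402), and Cebpg, an ATF4 partner (0.90 ± 0.13, 0.000556), while Pycr1, of proline synthesis, was lower (−1.19 ± 0.30, 0.0188). Beside these, 2 of 5 erythroid genes were called lower, at a sum of 129.6 to 255 CPM against 263 to 404, and 0 of 10 hepatocyte genes were called. Whether blood content plays a part was not tested.

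In livers labelled NFATc3-MKO Manf and Syvn1 were higher and Chac1 lower. edgeR called these 3 of 35 (8.57%), a share near the 8.45% of genes tested in that comparison (3.77% higher, 4.67% lower), and groups did not overlap for 4, against 12.8% of all genes. The chaperones had a median log2 change of 0.27 with 10 of 14 positive, and the ATF4 targets 0.21 with 6 of 11 positive. The median over all genes was 0.03.

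The annotated exons of Manf overlap those of Rbm15b on the same strand and of Dcaf1 on the opposite strand, and reads of the overlaps cannot be told apart. Manf (chromosome 9, 106838312 to 106891979) stood at 87.0, 129, 192 and 157 CPM in NFATc3-MKO livers and at 81.3, 77.8, 77.4 and 48.1 in Lyz2-Cre livers, apart but narrowly so (0.99 ± 0.29, edgeR adjusted p = 0.0429). Syvn1 stood at 24.6, 24.2, 37.3 and 28.0 CPM against 15.9, 18.4, 20.1 and 14.8 (0.72 ± 0.21, edgeR adjusted p = 0.0402). Chac1 (chromosome 2, 119351229 to 119354381) stood at 0.451, 0.757, 1.48 and 1.18 CPM against 0.483, 14.4, 9.36 and 10.8 (−3.18 ± 0.93, edgeR adjusted p = 0.0458). Its groups overlapped, since Lyz2-Cre replicate 1 lay among the NFATc3-MKO values. Neither Hspa5, at 785, 989, 1161 and 1122 CPM (0.52 ± 0.25, edgeR adjusted p = 0.193), nor Asns, at 41.2, 56.3, 92.4 and 68.9 CPM (0.73 ± 0.33, edgeR adjusted p = 0.174), passed. Xbp1 stood at 138, 143, 159 and 129 CPM (−0.10 ± 0.14), Atf4 at 54.3, 75.9, 110.2 and 86.1 (−0.40 ± 0.26), Ddit3 at 5.96, 9.65, 18.6 and 8.73 (−0.34 ± 0.49) and Trib3 at 17.1, 24.4, 64.6 and 19.5 (0.74 ± 0.65), and none of the 4 was called.

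All 3 calls depended on single livers. The count fell to 0 without ASK1-MKO replicate 1, Lyz2-Cre replicates 3 or 4, or NFATc3-MKO replicates 3 or 4. It fell to 1 without ASK1-MKO replicate 4, Lyz2-Cre replicate 1, MDKO replicates 2, 3 or 4, or NFATc3-MKO replicate 2. The adjusted p of edgeR then reached at most 0.131 for Manf, 0.12 for Syvn1 and 0.108 for Chac1. Manf also missed without Lyz2-Cre replicate 2 or MDKO replicate 1, and Chac1 without Lyz2-Cre replicate 2 or NFATc3-MKO replicate 1. With only the NFATc3-MKO and Lyz2-Cre livers in the fit 0 were called, and without a filter on low counts Manf (0.0646) and Chac1 (0.0934) missed. Some marker lists moved with this group and others did not. Of the 8 pan-macrophage genes 0 were called, with 5 positive and 3 negative. Their sum was 158 to 764 CPM against 129 to 376 in controls. Monocyte-derived and lipid-associated macrophage genes summed to 230.6 to 1150 CPM against 157.5 to 423 in controls (1 of 8 called higher, 8 of 8 positive). Kupffer cell genes summed to 178 to 233 against 204 to 411 (2 of 7 lower, 6 negative). Liver endothelial genes summed to 147 to 216 against 213 to 270.4 (2 of 8 lower, 7 negative). The 11 plasma and B cell genes mark cells with a large ER. They summed to 27.8 to 80.9 CPM against 10.8 to 21.2 in controls (3 of 7 tested higher, 0 lower, 6 positive). Neutrophil genes summed to 7.28 to 43.3 against 2.73 to 11.0 (2 of 4 tested higher, 4 positive). Hepatocyte genes summed to 85840 to 130300 against 116000 to 150900 (1 of 10 lower, 10 negative). The part of these cell types in the calls of Manf, Syvn1 and Chac1 was not tested. Of other ER genes Selenos (0.59 ± 0.14, edgeR adjusted p = 0.0204), Selenok (0.68 ± 0.19, 0.0339) and Txndc11 (0.43 ± 0.12, 0.0399) were higher, and Ppp1r15b, the constitutive eIF2alpha phosphatase partner, was lower (−0.58 ± 0.13, 0.0145).

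**Figure D4:**
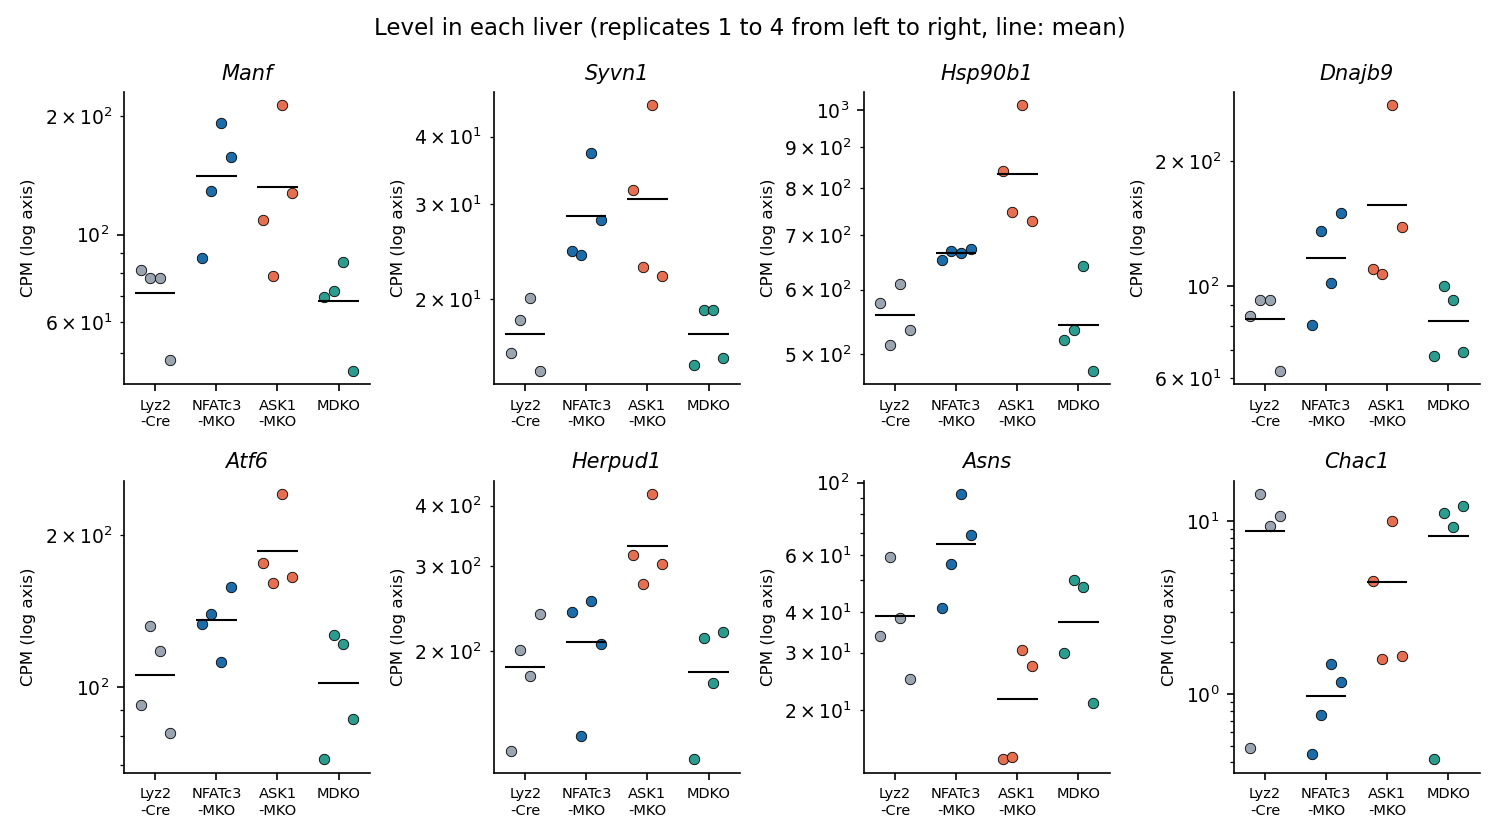
CPM in each liver on a log axis for 8 members, replicates 1 to 4 from left to right within a group, with a line at the mean of 4. Hsp90b1, Dnajb9, Atf6 and Herpud1 have their highest mean in ASK1-MKO livers, Manf and Syvn1 are higher in each single knockout than in most controls, Asns is higher in every NFATc3-MKO liver than in any ASK1-MKO liver, and MDKO livers follow the Lyz2-Cre livers of the same position.

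Between NFATc3-MKO and ASK1-MKO livers edgeR called 4 of 35 members. That share was below the 12.8% of genes tested in that comparison (7.15% higher in NFATc3-MKO, 5.61% lower). Groups did not overlap for 8 members, against 14.6% of all genes. Asns was 3.004-fold higher in NFATc3-MKO livers, 41.2 to 92.4 CPM against 14.1 to 30.5, without overlap (1.59 ± 0.34, edgeR adjusted p = 0.00713), and kept its call under every alternative run. Dnajc3 (−0.56 ± 0.14, edgeR adjusted p = 0.0143), Edem1 (−0.49 ± 0.13, 0.022) and Ern1 (−0.89 ± 0.25, 0.0306) were lower. The library values of Ern1 were 30.6, 47.4, 28.0 and 55.8 CPM in NFATc3-MKO and 58.3, 51.1, 119 and 70.6 in ASK1-MKO livers, which overlap, and those of Edem1 were 117, 122, 100.3 and 149 against 151, 165, 187 and 181, which do not. Without ASK1-MKO replicate 3 all 3 lost their call (0.0529, 0.0621 and 0.114). Edem1 and Ern1 also lost it without ASK1-MKO replicate 4 (0.056 and 0.0502) or NFATc3-MKO replicate 3 (0.0612 and 0.096), and Ern1 without NFATc3-MKO replicate 1 (0.0507). Only the Asns call was left with these 8 livers alone in the fit.

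In MDKO livers 0 of 35 members differed from Lyz2-Cre livers by edgeR, against 0% of genes tested in that comparison. At an unadjusted p under 0.05 the counts were 0 of 35 and 0.263% of all genes. Independent groups with no difference would be expected to put a share of genes near 0.05 there. The cause of the far lower share was not tested. DESeq2 also called 0 members. Groups were apart for 0 members and for 0.458% of all genes. Log2 changes ran from −0.19 (Creld2) to 0.50 (Phgdh, at 0.234 to 1.16 CPM), with a median of −0.07 for chaperones and −0.10 for ATF4 targets. All 14 chaperones had a negative log2 change, with 0 called. Hspa5 stood at 614, 718, 892 and 479 CPM (−0.07 ± 0.25), Xbp1 at 162, 161, 158 and 142 (0.03 ± 0.14), Asns at 29.9, 50.3, 47.9 and 20.9 (−0.07 ± 0.34) and Trib3 at 4.67, 24.8, 22.7 and 15.7 (−0.16 ± 0.66). Atf4 stood at 124, 96.7, 125 and 74.6 CPM (−0.04 ± 0.26) and Ddit3 at 9.21, 16.0, 16.1 and 9.95 (−0.09 ± 0.50).

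These values followed the controls liver by liver. Chac1 stood at 0.416, 11.2, 9.21 and 12.2 CPM in MDKO replicates 1 to 4 and at 0.483, 14.4, 9.36 and 10.8 in Lyz2-Cre replicates 1 to 4. As a description over 35 genes that share their libraries, the deviations of same-numbered livers from their group means correlated at r = 0.761 to 0.959 in the 4 pairs, and those of differently numbered livers at −0.854 to 0.495 in 12 pairs. Per gene, the counts of same-numbered livers differed by 2.31 to 13.7 times the sampling variance. The ratio was 11.5 to 69.0 for differently numbered livers of these groups and 11.1 to 137 for livers within any group. It grows with depth, and the lowest value of each kind came from a pair with MDKO replicate 3, the smallest liver library. Such a ratio does not tell separate animals from repeat libraries of 1 animal, which was not tested, and the groups are those of the labels. With the replicate number as a block the count of called members was still 0.

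**Figure D5:**
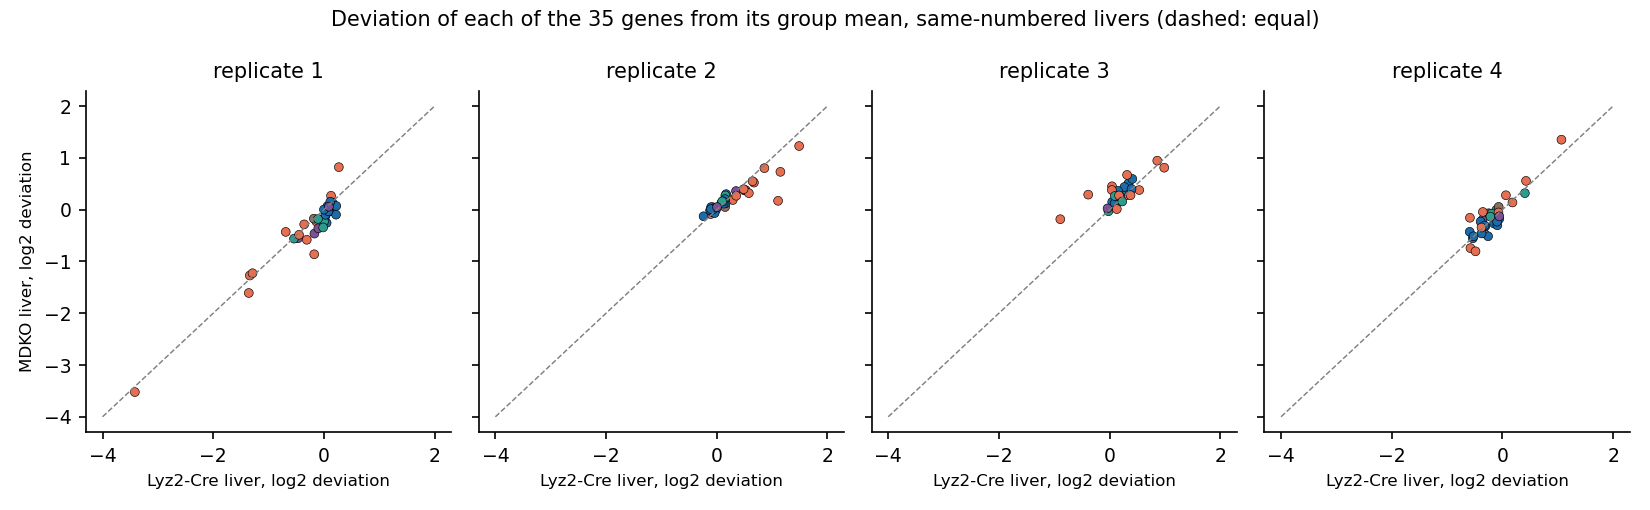
Deviation of each of the 35 members from its group mean (log2 CPM) in each Lyz2-Cre liver (horizontal) and the MDKO liver of the same number (vertical), with the line of equality dashed and colours by role as in the plot of knock-in changes. The points lie along the line in all 4 pairs, with r of 0.761 to 0.959, and Chac1 lies far below 0 on both axes in replicate 1.

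Against the single knockouts several members were lower in MDKO livers. These comparisons share the MDKO livers with each other and with that against Lyz2-Cre, so the values are given side by side. Against ASK1-MKO 8 members were lower and 0 higher (7.72% of genes tested in that comparison were called, 3.46% higher and 4.26% lower): Hsp90b1 (−0.62), Pdia4 (−0.61), Dnajb9 (−0.93), Dnajc3 (−0.54), Atf6 (−0.87), Herpud1 (−0.87), Sel1l (−0.53) and Syvn1 (−0.83). Groups did not overlap for 9, against 18.1% of all genes. Hsp90b1, at 520.0, 535, 642 and 476 CPM in MDKO livers, kept its call under every alternative run (edgeR adjusted p = 0.00632). The count was 2 without ASK1-MKO replicate 3 or MDKO replicates 1 or 4, 4 without ASK1-MKO replicate 1, 5 on leaving out replicate 4 of ASK1-MKO or replicate 3 of Lyz2-Cre, and 13 without NFATc3-MKO replicate 3. It was 15 with the replicate number as a block and 14 by DESeq2, and Hspa5 passed in both (−0.71, adjusted p = 0.0272, and −0.76, 0.0279). Same-numbered livers of these groups correlated over all genes at only −0.171 to 0.158, so the block does not rest on a shown pairing. In MDKO livers Dnajb9 stood at 67.9, 99.8, 92.4 and 69.2 CPM, Dnajc3 at 199, 225, 248 and 201, Atf6 at 71.7, 127, 122 and 86.5 and Herpud1 at 119, 213, 172 and 219, each below every ASK1-MKO liver. Sel1l stood at 101, 143, 153 and 121 CPM in MDKO, 179, 172, 221 and 175 in ASK1-MKO and 135, 148, 145 and 119 in Lyz2-Cre livers. Its MDKO and ASK1-MKO groups were apart.

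Between MDKO and NFATc3-MKO livers groups did not overlap for 5 members, against 12.7% of all genes. Here 3 of 35 members were lower and 0 higher. That share called was near the 7.35% of genes tested in that comparison (4.06% higher and 3.29% lower). The 3 called were Manf, at 69.5, 72.0 and 45.0 CPM in MDKO replicates 1, 2 and 4 and highest in replicate 3 (−1.06 ± 0.29, edgeR adjusted p = 0.0358), Syvn1, at 15.1, 19.2, 19.1 and 15.6 (−0.73 ± 0.21, 0.0431), and Pdia4, at 119, 139, 131 and 97.5 against 159, 162, 213 and 214 (−0.62 ± 0.17, 0.0407). All 3 were lower in every MDKO liver than in any NFATc3-MKO liver. The count was 0 without MDKO replicates 3 or 4 or NFATc3-MKO replicates 3 or 4, and 1 without ASK1-MKO replicate 1, Lyz2-Cre replicate 3, or MDKO replicates 1 or 2.

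The design also asks whether loss of both genes differs from the sum of the single losses, read as an interaction: the MDKO change against NFATc3-MKO, with the ASK1-MKO change against controls taken off. edgeR called 12 of 35 members, 11 negative and 1 positive, against 16.2% of genes tested in that comparison (8% negative, 8.17% positive). All 14 chaperones were negative, with a median of −0.83, and 7 were called: Hspa5 (−1.26 ± 0.35, edgeR adjusted p = 0.0214), Hsp90b1 (−0.87 ± 0.18, 0.00345), Pdia3 (−0.75 ± 0.21, 0.0234), Pdia4 (−1.15 ± 0.25, 0.00495), Dnajb9 (−1.42 ± 0.38, 0.0177), Dnajb11 (−0.85 ± 0.23, 0.0185) and Manf (−1.95 ± 0.41, 0.00414). Negative as well were Atf6 (−1.23 ± 0.28, 0.00726) and the degradation genes Syvn1 (−1.56 ± 0.29, 0.00212), Sel1l (−0.82 ± 0.21, 0.0136) and Herpud1 (−1.04 ± 0.33, 0.0409). The ATF4 targets had a median of 0.06, and Chac1, at 4.07 ± 1.25 (0.0364), was the one called. In the 11 negative members the log2 changes of both single knockouts against Lyz2-Cre were positive, and those of MDKO lay between −0.12 (Dnajb11) and −0.01 (Dnajb9 and Syvn1). The likeness of same-numbered MDKO and Lyz2-Cre livers enters each of these values. The 14 chaperones also share their livers, so their common sign is not 14 separate observations. All 14 were negative in MDKO against Lyz2-Cre livers as well, where 0 were called. The fit took all livers as independent, and both of these groups enter the interaction with the same sign. Their likeness then widens its true spread, so these adjusted p-values may be too small. A replicate block shared by all groups does not correct this.

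In NFATc3-MKO livers Dnajb9 stood at 80.6, 135, 102 and 149.6 CPM, Atf6 at 133, 139, 112 and 158, Herpud1 at 241, 134, 254 and 207 and Sel1l at 202, 145, 144 and 180.4, each overlapping with controls. In ASK1-MKO livers Manf stood at 109, 78.7, 213 and 127 CPM and Pdia4 at 141 to 250.6, both overlapping with controls. Pdia3 stood at 444, 396, 581 and 473 CPM in ASK1-MKO, 366, 379.7, 537 and 438 in NFATc3-MKO, 382, 344, 381 and 279 in MDKO and 379, 334, 362 and 329 in Lyz2-Cre livers. Dnajb11 stood at 80.4, 60.4, 107.5 and 78.5 CPM, 66.3, 65.7, 95.1 and 83.5, 59.2, 58.4, 63.1 and 46.9, and 64.4, 58.8, 68.5 and 55.5 in the same order of groups. Each single knockout overlapped with the controls in both genes except Pdia3 in ASK1-MKO. Of the 12 calls, 9 held under every alternative run. Pdia3 lost its call without replicate 4 of Lyz2-Cre (0.0509) or MDKO (0.0554). Herpud1 lost its call without ASK1-MKO replicates 1, 3 or 4, Lyz2-Cre replicates 1 or 3, MDKO replicates 1 or 3, or NFATc3-MKO replicates 1, 3 or 4 (0.0534 to 0.0789), and without a filter on low counts (0.0504). Chac1 lost its call in 13 of 16 such fits (0.0512 to 0.0722), all but those without ASK1-MKO replicate 3, Lyz2-Cre replicate 1 or MDKO replicate 1, with the replicate number as a block (0.065) and without a filter on low counts (0.0819).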

How the data were processed

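RNA from 16 livers and 12 macrophage cultures was extracted with TRIzol and sequenced from dUTP strand-specific libraries, per the labels' protocols. Reads were aligned with HISAT2 to mm10, per the submitters' processing notes. Which counting program, annotation and strandedness were used is not given in the sources used here. Per-gene estimated counts were deposited for liver (85.42% of values whole, rounded here), and the authors deposited whole-number counts per gene for the cultures. In R 4.3.3, edgeR 4.0.16 with its filter on low counts, TMM scaling and the robust quasi-likelihood F test was fitted separately to each table, with all 4 liver groups in one fit. P-values were adjusted (Benjamini-Hochberg) over the 13309, 13363 and 11380 genes tested, and an adjusted p under 0.05 was a call. The SE is the log2 change over the square root of F. CPM used TMM-scaled library sizes, and mean log2 levels over a list a prior count of 2. MDKO replicate 3 had 8912117 counts and the other 15 livers 20601168 to 30834547.

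The members and all lists were chosen with earlier results of these data known. Values in every library are given for members called in any comparison (the 12 with the smallest p where over 12 were called) and always for Hspa5, Xbp1, Atf4, Ddit3, Asns and Trib3, with other members by range and counts. From each other pathway list up to 4 called genes with the smallest p could be named. Replicate numbers come from the labels. Deviations of same-numbered MDKO and Lyz2-Cre livers correlated over all genes at r = 0.239 to 0.528, all over 0.1, so a fit with the replicate number as a block was compared for them. That fit was also run for the other group comparisons, where not every same-numbered pair passed 0.1. Pairs of NFATc3-MKO and Lyz2-Cre livers ran from −0.206 to 0.561, and their highest, replicate 2, was above every MDKO and Lyz2-Cre pair. The counts of that fit in these other comparisons do not rest on a shown pairing. The alternatives were DESeq2 1.42.0 (Wald test), no filter on low counts, the block, only the groups compared in the fit, and leaving out each library. The fits were checked on simulated data. Gene positions came from GENCODE M21. Of promoters, 31 of 35 matched; Hyou1, Manf, Atf6 and Aldh1l2 did not. A second identifier of Ddit3 was at 0 throughout, and Ero1l is written Ero1a in the liver table. Exons of 10 members overlap a gene on the opposite strand and those of 4 a gene on the same strand.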

Additional observations from a re-analysis of the deposited data

Results flagged for a closer look

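In groups of 4 livers a single library lay far from the other 3 in 5 of 80 groups tested, where chance gives about 1 in 20. These were Ddit3 at 35.6 CPM and Sel1l at 221 CPM in ASK1-MKO replicate 3, Manf at 48.1 CPM and Pdia4 at 102.2 CPM in Lyz2-Cre replicate 4, and Trib3 at 64.6 CPM in NFATc3-MKO replicate 3.

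The interaction test of edgeR called 12 members (adjusted p under 0.05). It took same-numbered MDKO and Lyz2-Cre livers as independent although they were alike, so its p-values may be too small. The log2 values were −1.26 for Hspa5, −0.87 for Hsp90b1, −0.75 for Pdia3, −1.15 for Pdia4, −1.42 for Dnajb9, −0.85 for Dnajb11, −1.95 for Manf, −1.23 for Atf6, −1.04 for Herpud1, −0.82 for Sel1l, −1.56 for Syvn1 and 4.07 for Chac1.

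Every culture of one knock-in moved one way and every culture of the other the opposite way in 8 members, and this difference was not tested. The log2 changes in NFATc3-MKI and ASK1-MKI were 0.50 and −0.40 for Herpud1, 0.47 and −0.14 for Sel1l, 0.17 and −0.13 for Edem1, 1.19 and −1.74 for Trib3, 0.95 and −1.06 for Asns, 0.15 and −1.15 for Psat1, 0.35 and −2.02 for Phgdh, and 0.42 and −0.26 for Slc3a2.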

How the results depend on the processing

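Counts of called members moved most in liver. DESeq2 called 12 in ASK1-MKO against Lyz2-Cre, 14 in MDKO against ASK1-MKO and 8 in NFATc3-MKO against ASK1-MKO. Without a filter on low counts 1 was called in NFATc3-MKO against Lyz2-Cre and 0 in MDKO against NFATc3-MKO. With the replicate number as a block the counts were 5 in NFATc3-MKO and 10 in ASK1-MKO against Lyz2-Cre, 6 in MDKO against NFATc3-MKO, 15 in MDKO against ASK1-MKO and 0 in MDKO against Lyz2-Cre. With only the groups compared in the fit they were 0 in NFATc3-MKO against Lyz2-Cre, 0 in MDKO against NFATc3-MKO and 1 in NFATc3-MKO against ASK1-MKO. Leaving out each library gave 0 to 4 in NFATc3-MKO and 1 to 9 in ASK1-MKO against Lyz2-Cre, 2 to 13 in MDKO against ASK1-MKO, 0 to 4 in MDKO against NFATc3-MKO, 2 to 5 in NFATc3-MKO against ASK1-MKO, 10 to 13 for the interaction, 17 to 22 in NFATc3-MKI and 24 to 26 in ASK1-MKI. Medians then ran from 0.14 to 0.23 for chaperones in NFATc3-MKI, 0.19 to 0.21 for chaperones in ASK1-MKI and −1.16 to −1.02 for ATF4 targets in ASK1-MKI. The cause was not tested. Under all alternatives run 23 of 25 calls held in ASK1-MKI, 16 of 19 in NFATc3-MKI, 9 of 12 for the interaction, 1 of 6 in ASK1-MKO and 0 of 3 in NFATc3-MKO against Lyz2-Cre, 1 of 8 in MDKO against ASK1-MKO, 0 of 3 in MDKO against NFATc3-MKO and 1 of 4 in NFATc3-MKO against ASK1-MKO, and no direction was reversed.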
